A study of Mus musculus with 18 samples.

Results

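The lysosome degrades what a cell takes in or recycles, and the genes described here encode its working parts. They are 40 mouse genes: 15 for subunits and accessory proteins of the vacuolar proton pump (V-ATPase), 5 for lysosomal membrane proteins, 12 for glycosidases and sulfatases, 5 for proteases and lipid or phosphate hydrolases, 2 for progranulin and prosaposin, and 1 for the regulator Tfeb. They were found in the deposited count table, which holds 54532 genes, by matching Ensembl identifiers to these symbols, and all 40 were present. Cathepsins were not included.

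The V-ATPase pumps protons into the lysosome. Its V1 sector faces the cytosol and splits ATP, and its V0 sector carries the protons across the membrane. Most lysosomal hydrolases work best at the acid pH this creates. TFEB and its relatives of the MiT family bind an E-box-like element in the promoters of many lysosomal genes. In the retina, microglia take up debris of dying photoreceptors and digest it in lysosomes, and inherited loss of several of these hydrolases causes storage disease of neurons.

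The libraries come from retinas of rd1 mice on the FVB strain at postnatal day 30, an age at which the Pde6b mutation of rd1 has destroyed most rods. Eyes had received a subretinal injection of an AAV8 vector for green fluorescent protein (AAV8-GFP), or of that vector together with one for transforming growth factor beta 1 (AAV8-TGFB1), so both groups carried AAV8-GFP. There were no uninjected and no wild-type retinas among the samples. Retinas were dissociated with papain, antibody-stained cells were sorted into microglia and non-microglia, and their polyA RNA was sequenced after a modified Smart-Seq2 preparation. For each treatment there are 7 libraries of microglia (replicates 2 to 8) and 2 of non-microglia. The labels give neither the promoter of the vectors nor the species of the TGFB1 sequence. Nor is it stated that replicates are different animals. The p-values therefore rest on variation from library to library, which may be technical.

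Libraries held 1582451 to 3064027 counts. The 7 microglial markers summed to 27545 CPM (counts per 1e+06 counts of a library) in GFP microglia and to 16.4 CPM in GFP non-microglia, which is 0.0597% of the microglial level. The 6 Mueller glia markers summed to 497 CPM in GFP microglia, or 4.04% of their level in GFP non-microglia. Xist counts exceeded those of Y chromosome genes in replicates 2, 7 and 8 of both microglia groups. In their other replicates and in all non-microglia libraries it was the reverse. The fractions therefore differed in this class, and no fit between fractions held a term for it. Of the 40 genes, Atp6ap1, Atp6ap2, Lamp2 and Gla lie on the X chromosome. All 40 lysosomal genes passed the filter on low counts in every comparison. Together they took 1.82% to 2.15% of the counts in microglia libraries and 0.555% to 0.589% in non-microglia libraries.

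The first comparison asks how the lysosomal genes differ between the sorted fractions. Of the degradative enzymes, 9 of 12 glycosidases and sulfatases and all 5 proteases and lipid or phosphate hydrolases were higher in microglia, by 1.61-fold (Tpp1) to 90.7-fold (Man2b1). V-ATPase genes went both ways, with log2 fold changes from -0.58 to 1.30. In GFP retinas 28 of the 40 genes were higher in microglia, 4 were lower and 8 did not pass (edgeR adjusted p under 0.05). Over all 15321 genes tested, 64.2% were called, with 29.9% of the genes tested higher in microglia and 34.2% lower. The median log2 fold change was 0.94 over the 40 genes and -0.06 over all genes tested. Of the 25 genes outside the V-ATPase, 21 were higher and 0 lower, with a median of 1.32. Of the 15 V-ATPase genes, 7 were higher and 4 lower, with a median of 0.28. In bulk RNA such as this, fewer cells of a type and less RNA per cell cannot be told apart.

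**Figure D1:**
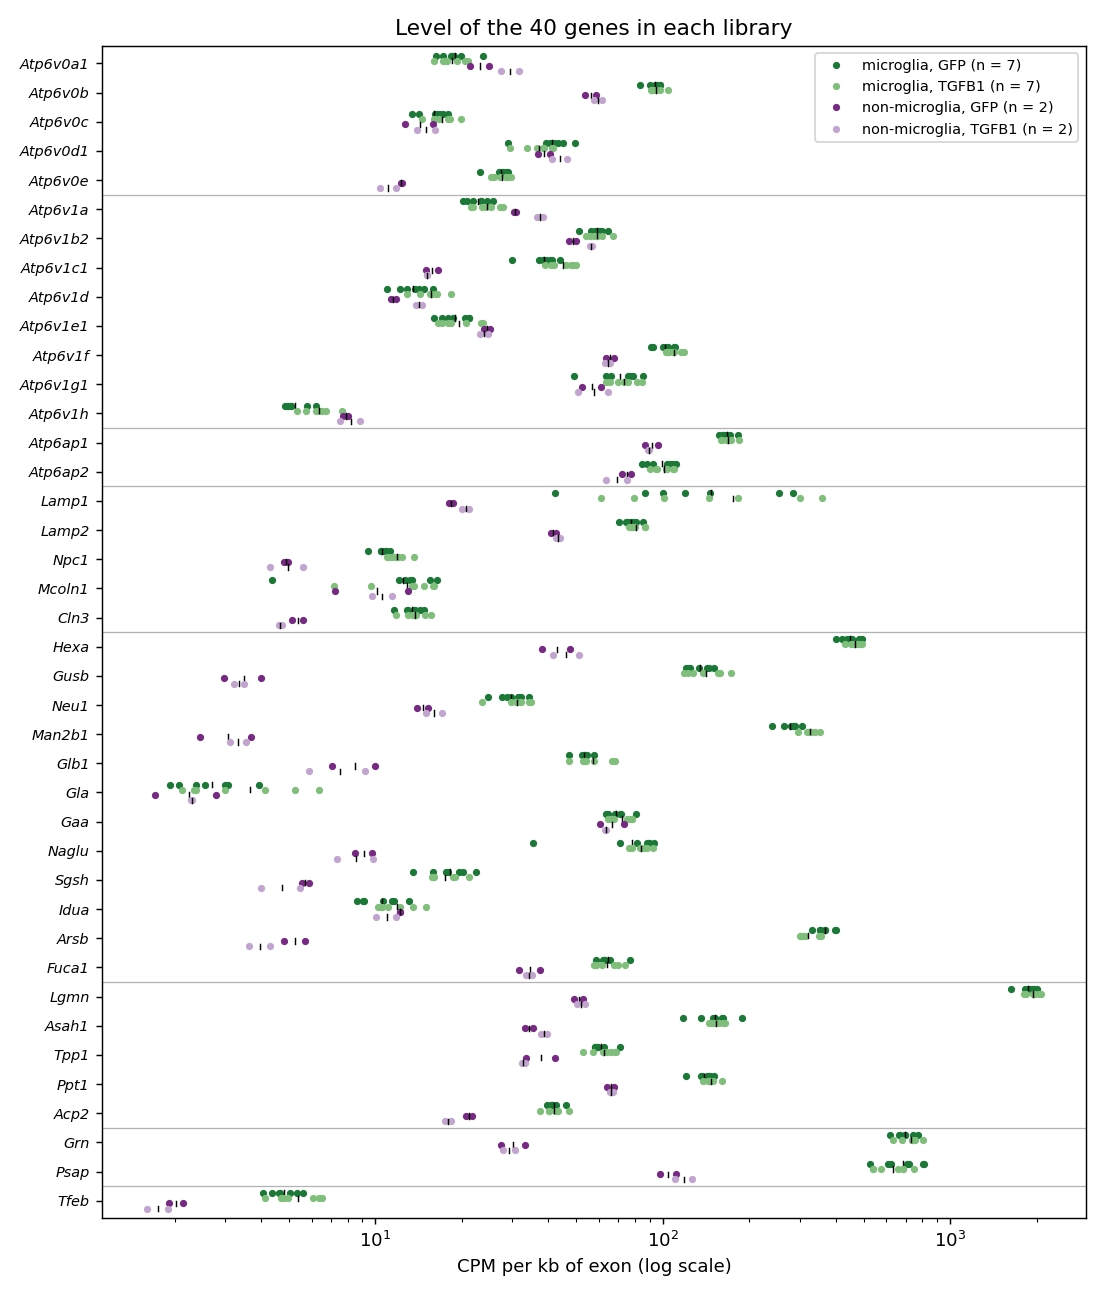
Level of each of the 40 genes in each of the 18 libraries, as CPM per kb of exon on a log axis, grouped by role with grey lines between roles. Each point is a library and each black tick a group mean. Points of the glycosidases Man2b1, Gusb and Hexa and of Lgmn lie far to the right in microglia, while those of most V-ATPase genes lie close together in both fractions.

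Summed over the 25 genes outside the V-ATPase, the level was 18771 ± 1021 CPM (SD, n = 7) in GFP microglia and 2572 ± 77.96 (n = 2) in GFP non-microglia. Summed over the 15 V-ATPase genes it was 2356 ± 106 and 1798 ± 26.9 CPM. With TGFB1 the sums were 19294 ± 685 and 2577 ± 50.1 CPM for the former set, and 2445 ± 73.4 and 1924 ± 46.5 CPM for the latter.

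Man2b1, the lysosomal alpha-mannosidase (chr8:85083270-85098282, plus strand, GRCm38), had the highest fold of all 40 genes. Its lowest, median and highest levels in GFP microglia were 1932, 2273 and 2449 CPM, and GFP non-microglia had 19.7 and 29.6 CPM. The fractions did not overlap, and the log2 fold change was 6.50 (SE 0.16, edgeR adjusted p = 4.76e-21), or 90.7-fold. Per kb of exon, Man2b1 stood at 278 CPM in GFP microglia. In GFP non-microglia it stood at 3.07, where among the 40 genes only Gla and Tfeb were lower. At the other end of the glycosidases, Idua, which removes iduronic acid from heparan and dermatan sulfate, had 36.3, 44.7 and 55.2 CPM in GFP microglia against 51.1 and 51.2 CPM. Those groups overlapped, and the log2 fold change was -0.20 (SE 0.16, edgeR adjusted p = 0.279).

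The other sugar-cleaving enzymes spread between these ends, 9 of 12 being higher in microglia. Arsb, a sulfatase acting on dermatan sulfate, followed Man2b1 with 1999, 2208 and 2419 CPM (lowest, median, highest) in GFP microglia and 29.0 and 34.4 CPM in non-microglia, a log2 fold change of 6.12 (SE 0.14). Reads of Arsb are less certain, since 39.9% of its exon bases also lie in exons of the predicted gene Gm26527. Gusb, the beta-glucuronidase, reached 5.27 on the same scale, and Hexa, the alpha subunit of beta-hexosaminidase, 3.39. Naglu and Sgsh both act on heparan sulfate and were higher by 8.58-fold and by a log2 fold change of 1.66. In Sgsh 21.6% of exon bases also lie in exons of other genes, mainly Card14, and in Hexa 12.8%, mainly Tmem202. Glb1, the lysosomal beta-galactosidase, was at 2.63. Neu1, a sialidase, was at 1.02 and Fuca1, a fucosidase, at 0.90. Gaa, which digests glycogen, did not pass (0.05, edgeR adjusted p = 0.718), nor did Gla, the alpha-galactosidase, which was the gene with the fewest counts (0.27, edgeR adjusted p = 0.559).

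All 5 proteases and lipid or phosphate hydrolases were higher in microglia. Lgmn, the asparaginyl endopeptidase legumain (chr12:102394084-102439813, minus strand), was the highest of the 40 genes per kb of exon in microglia, at 1873 ± 121 CPM per kb in the GFP group. Its CPM ran over 3793, 4379 and 4674 in GFP microglia, with 114 and 123 in GFP non-microglia, so that the groups lay far apart. The log2 fold change was 5.20 (SE 0.11, edgeR adjusted p = 5.38e-22). Tpp1, a tripeptidyl peptidase, was the least different, with 299, 306 and 367 CPM against 172 and 219 CPM. Those groups did not overlap either, at a log2 fold change of 0.69 (SE 0.11, edgeR adjusted p = 8.95e-06). Between them lay Asah1, the acid ceramidase (2.15), Ppt1, which removes palmitate from proteins (1.08), and the acid phosphatase Acp2 (0.98).

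Grn encodes progranulin, a secreted protein delivered to lysosomes, and Psap the precursor of the saposins, small activators of sphingolipid hydrolases. Grn was at 2149, 2415 and 2692 CPM in GFP microglia and 94.96 and 115 CPM in GFP non-microglia, a log2 fold change of 4.52 (SE 0.13, edgeR adjusted p = 1.32e-19). Psap was at 1448, 1947 and 2231 CPM against 268 and 305 CPM, a log2 fold change of 2.72 (SE 0.17, edgeR adjusted p = 5.89e-12). In GFP non-microglia Psap was the highest of the 40 genes per kb of exon, at 104 ± 9.43 CPM per kb, followed by Atp6ap1 at 91.5 ± 6.35. The gap between them was less than the sum of their SDs.

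Among membrane proteins, 4 of 5 were higher in microglia. Lamp1, a heavily glycosylated protein of the limiting membrane (chr8:13159161-13175338, plus strand), had 113, 320 and 759 CPM in GFP microglia and 48.2 and 49.6 CPM in GFP non-microglia. All microglia libraries lay above the non-microglia ones, and the log2 fold change was 3.01 with a wide SE of 0.86 (edgeR adjusted p = 0.00649). The call was lost when either GFP non-microglia library was left out, at adjusted p = 0.0524 and 0.0545. Lamp2, Npc1, which exports cholesterol, and Cln3 had log2 fold changes of 0.90, 1.11 and 1.32, and all 3 passed. Mcoln1, the lysosomal cation channel TRPML1, overlapped between fractions, with 32.9, 99.7 and 124 CPM against 54.6 and 98.4 CPM (0.30, SE 0.37, edgeR adjusted p = 0.493). Tfeb itself was a low gene, with 23.1, 26.5 and 31.9 CPM against 10.9 and 12.1 CPM. Its groups did not overlap, and its log2 fold change was 1.25 (SE 0.21, edgeR adjusted p = 1.62e-05).

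The proton pump did not move as a block. In the membrane sector V0, Atp6v0e and Atp6v0b were higher in microglia and Atp6v0a1 was lower. Atp6v0e, a small subunit, had 85.996, 104 and 107 CPM in GFP microglia and 45.5 and 45.8 CPM in GFP non-microglia, a log2 fold change of 1.15 (SE 0.12, edgeR adjusted p = 3.82e-09). Atp6v0a1, an isoform of the large subunit a, had 106, 122 and 156 CPM against 140 and 163 CPM. Those groups overlapped and the log2 fold change of -0.28 (SE 0.12) passed by little (edgeR adjusted p = 0.0467). It was lost in 7 of the 9 fits that left out 1 library, with an adjusted p up to 0.461. Atp6v0c and Atp6v0d1 did not pass, at 0.17 and 0.09. Atp6v0c is uncertain in any case, since its pseudogene Atp6v0c-ps2 took 1707 counts against 2335 for the gene.

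In the V1 sector Atp6v1c1, Atp6v1f and Atp6v1b2 were higher in microglia, Atp6v1a, Atp6v1e1 and Atp6v1h lower, and Atp6v1d and Atp6v1g1 did not pass. Atp6v1c1, the subunit C that joins the sectors in reversible assembly, had 167, 220 and 246 CPM in GFP microglia and 83.7 and 92.3 CPM in GFP non-microglia (log2 fold change 1.30, SE 0.13, edgeR adjusted p = 3.44e-09). Atp6v1h, the regulatory subunit H, had 47.4, 49.4 and 60.5 CPM against 75.2 and 78.5 CPM (-0.58, SE 0.13, edgeR adjusted p = 0.000369). Neither gene overlapped between fractions. Atp6v1a encodes the catalytic subunit A and was lower by a log2 fold change of -0.43, with 122, 140 and 155 CPM against 184 and 187 CPM. Both accessory proteins were higher: Atp6ap1 had 474, 499 and 554 CPM against 263 and 291 CPM (0.87, SE 0.09), and Atp6ap2 222, 270 and 292 CPM against 189 and 204 CPM (0.40, SE 0.11). The calls of Atp6v1b2 (0.28) and Atp6v1e1 (-0.37) were each lost under some settings, among them leaving out GFP non-microglia replicate 1, which gave adjusted p = 0.0860 and 0.182.

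RNA shares of several isoform genes of subunits a, e and G differed between fractions, with 2 non-microglia libraries a group. Subunit a was read from Atp6v0a1, Atp6v0a2 and Tcirg1, the gene of isoform a3 of osteoclasts and macrophage lineages. Tcirg1 held 58.8 ± 5.29% of the summed level per kb in GFP microglia and 17.96 ± 0.794% in GFP non-microglia. Atp6v0a1 held 13.2 ± 1.90% and 52.0 ± 5.87%. For subunit e, Atp6v0e held 63.8 ± 7.83% in GFP microglia and 12.3 ± 0.303% in GFP non-microglia, the rest being Atp6v0e2. For subunit G, Atp6v1g1 held 96.5 ± 1.58% and 86.9 ± 0.423%, the rest being Atp6v1g2. With TGFB1 the shares lay in the same order, Tcirg1 holding 59.1 ± 3.82% in microglia and 13.0 ± 1.98% in non-microglia. As single genes, Tcirg1 was higher in GFP microglia by a log2 fold change of 3.42 (SE 0.17, edgeR adjusted p = 7.64e-15) and Atp6v0e2 lower by -2.48 (SE 0.23, edgeR adjusted p = 2.00e-08). The isoform shares themselves were not tested.

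**Figure D2:**
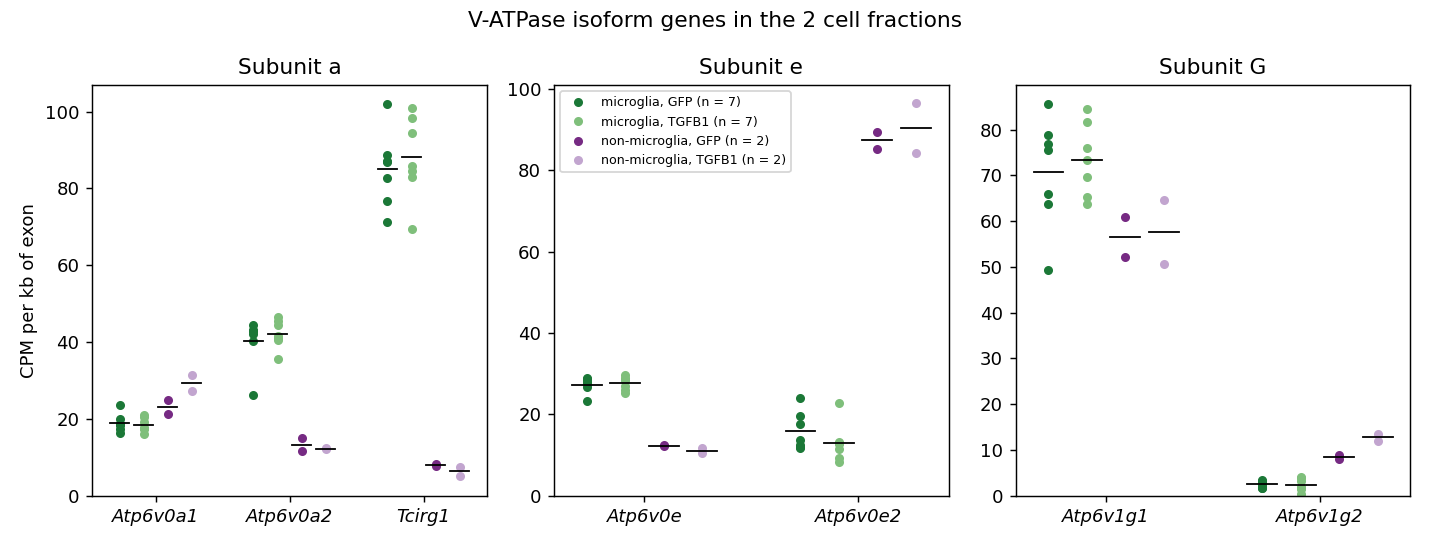
Levels of the isoform genes of V-ATPase subunits a, e and G, as CPM per kb of exon on linear axes from 0. Points are libraries and black lines group means. Tcirg1 is highest of the subunit a genes in microglia, and Atp6v0e2 stands above Atp6v0e in all 4 non-microglia libraries.

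In TGFB1 retinas the fractions differed in nearly the same way. There 27 of the 40 genes were higher in microglia and 3 lower, where 65.2% of all genes tested were called, 30.8% higher and 34.4% lower. Both comparisons called 27 genes higher and 3 lower (Atp6v0a1, Atp6v1a and Atp6v1h). Atp6v1b2 and Atp6v1e1 were called with GFP alone, and 8 genes in neither (Atp6v0c, Atp6v0d1, Atp6v1d, Atp6v1g1, Mcoln1, Gla, Gaa and Idua). Man2b1 had 2369, 2609 and 2825 CPM in TGFB1 microglia and 25.02 and 28.4 CPM in TGFB1 non-microglia, a log2 fold change of 6.61 (SE 0.16, edgeR adjusted p = 3.70e-21). Groups did not overlap for 31 of the 40 genes with GFP and for 30 with TGFB1, against 63.4% and 64.5% of all genes tested. Another scaling (RLE) moved the median over all genes by -0.12 in both comparisons, and in TGFB1 retinas it called 5 of the 40 genes lower in microglia, adding Atp6v0d1 and Atp6v1e1.

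How much of the non-microglia levels came from RNA of microglia left in that fraction was not tested. The non-microglia level of Man2b1 was 1.11% of the microglial one, the lowest such share of the 40 genes, against the 0.0597% of the microglial marker sum given above.

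Genes of the same pathway outside the 40 were also mostly higher in GFP microglia. Of 23 other lysosomal hydrolases and activators, 19 were higher and 0 lower. The lowest value was that of the sphingomyelinase Smpd1 (-0.39, edgeR adjusted p = 0.0773). Of 17 other membrane proteins and carriers, 11 were higher and 0 lower, from Laptm5, which is near 0 in non-microglia (10.997, SE 0.32, edgeR adjusted p = 4.39e-17), to Tmem192 (-0.97, edgeR adjusted p = 0.0759). Among 15 tested MiT factors and nutrient signalling genes, 7 were higher and 1, Rraga, was lower. Their ends were Mitf, a relative of Tfeb (2.61, SE 0.32, edgeR adjusted p = 1.29e-07), and Rragd (-1.41, edgeR adjusted p = 0.0759).

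The genes that sort enzymes to the lysosome went both ways. Of 10 tested, 8 were higher in GFP microglia and 2, Igf2r and Gnptg, were lower. Nagpa, which uncovers the mannose phosphate tag, was highest (3.99, SE 0.15, edgeR adjusted p = 3.82e-17). Igf2r, the large mannose phosphate receptor, had 0.484 to 2.95 CPM in GFP microglia against 18.2 and 20.9 CPM in GFP non-microglia (-3.38, SE 0.38, edgeR adjusted p = 3.57e-08). The small receptor M6pr was higher in microglia at 1.98 (SE 0.11). Of the 5 other V-ATPase subunits tested, 3 were higher and 2 lower. They ended in Atp6v0d2 (3.45), whose highest level in any GFP library was 6.26 CPM, and Atp6v0e2.

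Promoter sequences show an element that many of these genes share. They are given for the genes whose promoter holds TCACGTGA, the core of the element bound by TFEB and its relatives, and for Lamp1, which holds the shorter CACGTG several times. Of the 40 genes, 34 were matched to RefSeq promoters (GRCm38.p6, 250 bases before to 50 after the start site), 41 promoters in all. Asah1, Atp6v1b2, Atp6v1c1, Atp6v1g1, Atp6v1h and Npc1 were not matched. Windows of 40 bases on the gene's strand, 5′ to 3′ with TCACGTGA in capitals, follow in the order Atp6v0d1 (chr8:105566045-105566084, minus), Atp6v0e (chr17:26676382-26676421, plus), Atp6v1a (chr16:44139368-44139407, minus), Cln3 (chr7:126583335-126583374, minus), Gla (chrX:134601210-134601249, minus) and Mcoln1 (chr8:3500457-3500496, plus).
Atp6v0d1: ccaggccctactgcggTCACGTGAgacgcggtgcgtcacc
Atp6v0e: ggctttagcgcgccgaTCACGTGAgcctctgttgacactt
Atp6v1a: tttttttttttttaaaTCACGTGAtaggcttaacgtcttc
Cln3: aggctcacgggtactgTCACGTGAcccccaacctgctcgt
Gla: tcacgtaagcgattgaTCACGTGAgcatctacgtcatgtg
Mcoln1: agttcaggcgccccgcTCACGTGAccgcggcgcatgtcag

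The 80 bases before the start of Lamp1 (chr8:13159081-13159160, plus strand) hold CACGTG 4 times, shown in capitals.
Lamp1: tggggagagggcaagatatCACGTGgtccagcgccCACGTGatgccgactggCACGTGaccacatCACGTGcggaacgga

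Both motifs read the same on either strand, and every TCACGTGA contains a CACGTG. At least 1 CACGTG was found in a promoter of 13 of the 34 genes (38.2%), against 8.09% of all 27025 genes with a promoter in the table. TCACGTGA was found in 6 of 34 (17.6%) against 1.12%. The motif GAGGAAGT, a core of the myeloid factor PU.1, searched on both strands and with no overlap with the E-box motifs, was in 2 of 34 (5.88%) against 3.69%. All 40 genes are protein coding. Over the 17492 protein-coding genes with a promoter, the shares were 8.91% for CACGTG, 1.41% for TCACGTGA and 3.64% for GAGGAAGT. All such hits are matches of letters and not sites of binding, which was not measured. Genes with TCACGTGA did not share a direction between fractions. In GFP retinas Atp6v0e and Cln3 were higher in microglia, Atp6v1a was lower, and Atp6v0d1, Gla and Mcoln1 did not pass. Of the 11 genes more than 4-fold higher in GFP microglia, Man2b1, Arsb, Gusb, Grn, Hexa and Psap had no CACGTG in the window. Lamp1 had 4, Naglu and Glb1 had 1 each, and Lgmn had 1 in 1 of its 2 promoters. The last of the 11, Asah1, was not matched to a promoter.

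The second comparison asks what AAV8-TGFB1 did to these genes in microglia. Man2b1 was the single gene of the 40 that was called, higher with TGFB1, and none was called lower. Over 10970 genes tested, 0.31% were called, 0.237% higher and 0.0729% lower. Shifts were small: log2 fold changes ran from -0.21 (Arsb) to 0.43 (Gla), with a median of 0.05 over the 40 genes and 0.003 over all genes tested. A value above 0 was found for 33 of the 40 genes and for 50.7% of all genes. The 40 values come from the same libraries and are not independent. Their median was 0.13 among libraries with Xist counts alone and 0.01 among those with Y counts. For 5 of the 40 genes the unadjusted p was under 0.05, as it was for 730 of the 10970 genes tested. The groups overlapped for each of the 40 genes, while they did not for 0.228% of all genes tested. The medians were 0.04 over the V-ATPase genes and 0.05 over the others.

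**Figure D3:**
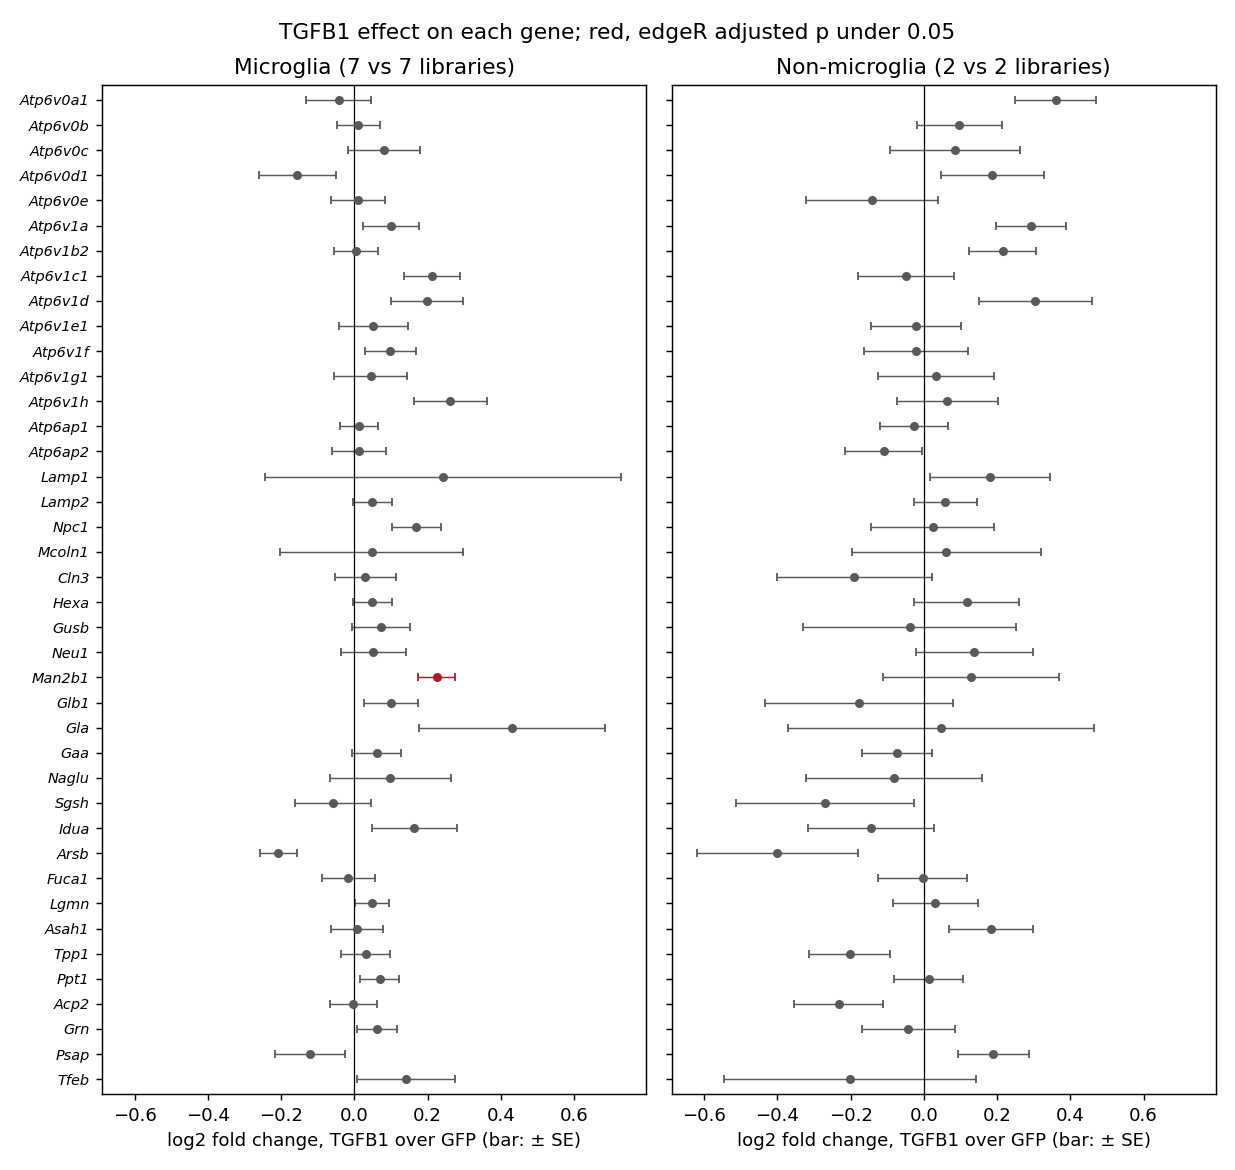
Log2 fold change of TGFB1 over GFP for each of the 40 genes in microglia (7 against 7 libraries) and non-microglia (2 against 2), with bars of ± 1 SE. Red marks an edgeR adjusted p under 0.05, which Man2b1 in microglia alone reached. The widest bars in microglia are those of Lamp1, Gla and Mcoln1.

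Man2b1 was at 1878, 2103 and 2268 CPM in GFP microglia and at 2220, 2452 and 2603 CPM in TGFB1 microglia (lowest, median, highest). The groups overlapped in 1 place, GFP replicate 8 lying above TGFB1 replicate 2. Means were 2089 ± 124 (SD, n = 7) and 2442 ± 128 CPM (n = 7), and the log2 fold change was 0.23 (SE 0.05, edgeR adjusted p = 0.0438), a 1.17-fold difference. With 1 library left out the call held in 3 of 14 fits, with log2 fold changes from 0.20 to 0.25 and adjusted p from 0.0237 to 0.122.

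Of the 6 Mueller glia markers, 5 were tested in microglia. All 5 had values below 0, but none was called, the smallest unadjusted edgeR p being 0.106. The bipolar (2), amacrine (1) and ganglion cell markers (2) tested were also below 0. None of these was called, the smallest unadjusted edgeR p being 0.0788. The 1 pigment epithelium marker tested was above 0, as was 1 of 2 monocyte and perivascular macrophage markers. The Mueller glia sum was 311 to 724 CPM in GFP and 247 to 596 CPM in TGFB1 microglia. The covariate used was the log2 sum of all 6 markers in unscaled CPM. With it the value of Man2b1 was 0.21 (edgeR adjusted p = 0.137), and without the 3 libraries of highest such sum 0.17 (adjusted p = 0.219). Among libraries with Xist counts alone it was 0.18 (adjusted p = 0.617), and among those with Y counts 0.26 (adjusted p = 0.147).

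Arsb had the next smallest p and went the other way. It was at 1942, 2056 and 2239 CPM in GFP and 1711, 1748 and 1983 CPM in TGFB1 microglia, so that TGFB1 replicate 4 lay above GFP replicate 2. The log2 fold change of -0.21 (SE 0.05) did not pass (edgeR adjusted p = 0.0927). It passed with DESeq2 (adjusted p = 0.0138) and with limma voom (adjusted p = 0.0408). In non-microglia Arsb did not pass either, its libraries holding 37.9 and 44.6 CPM with GFP and 28.6 and 34.0 CPM with TGFB1 (-0.40, SE 0.22, edgeR adjusted p = 0.732).

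The next genes by p did not pass either. Atp6v1c1 was at 163, 204 and 230 CPM in GFP and 201, 249 and 261 CPM in TGFB1 microglia (0.21, SE 0.08, edgeR adjusted p = 0.481). Atp6v1h was at 44.3, 45.8 and 56.9 CPM and then 48.1, 58.3 and 70.0 CPM (0.26, SE 0.10, edgeR adjusted p = 0.528). Npc1 was at 104, 111 and 119 CPM and then 117, 126 and 141 CPM (0.17, SE 0.07, edgeR adjusted p = 0.603). Their groups overlapped. Tfeb was at 21.6, 25.8 and 29.5 CPM and then 22.1, 25.9 and 34.8 CPM, a log2 fold change of 0.14 (SE 0.13, edgeR adjusted p = 0.915).

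**Figure D4:**
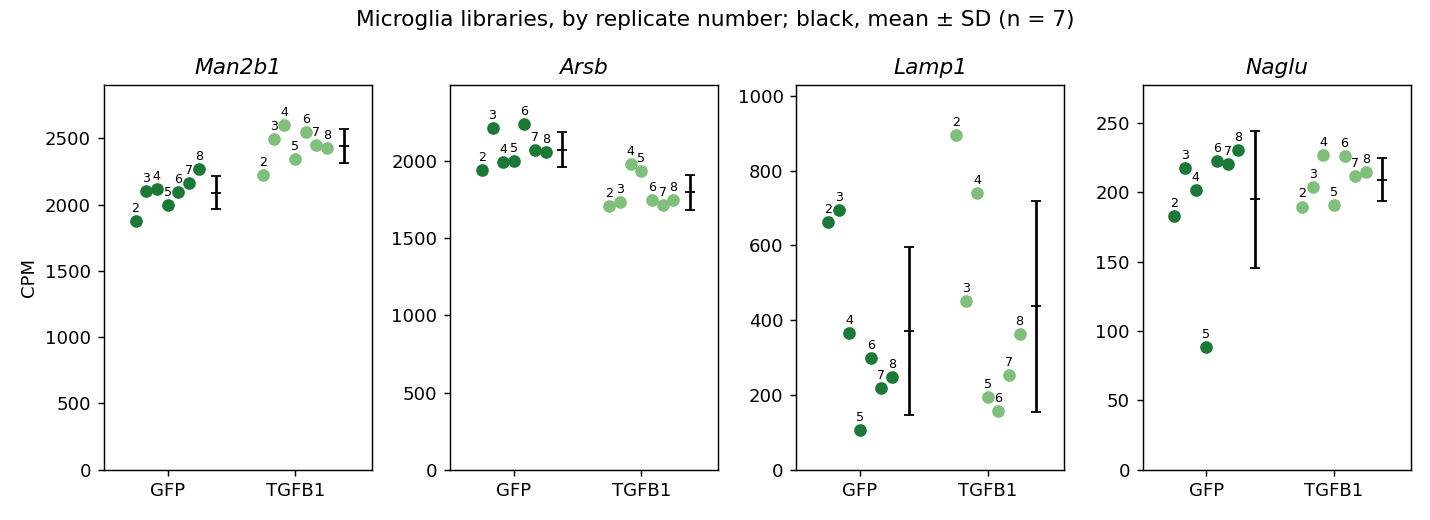
CPM of Man2b1, Arsb, Lamp1 and Naglu in each microglia library, numbered by replicate, with the mean ± SD (n = 7) in black and axes from 0. Man2b1 and Arsb overlap between treatments in a single pair of libraries each, Lamp1 spreads from 106 to 896 CPM, and GFP replicate 5 of Naglu lies apart at 88.3 CPM.

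Among pathway genes outside the 40, 1 was called in microglia. Naaa, an acid amidase of N-acylethanolamines, was at 144 to 205 CPM in GFP and 111 to 140 CPM in TGFB1 microglia (-0.48, SE 0.08, edgeR adjusted p = 0.00654). It was the only one of 23 other hydrolases called, ahead of Lipa, the acid lipase (0.23, adjusted p = 0.330), and Acp5 (0.48, adjusted p = 0.465). None of 17 other membrane proteins passed (Mfsd12, Laptm4a and Clcn7 had the smallest p, the lowest adjusted p being 0.611). None of 14 MiT and nutrient signalling genes passed (Lamtor2, Fnip2 and Lamtor1, lowest adjusted p = 0.877), nor of 9 sorting genes (Vps35, Nagpa and M6pr, lowest 0.880), nor of 4 other V-ATPase subunits (Atp6v0e2, Atp6v0a2 and Tcirg1, lowest 0.884).

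The lysosomal genes differed widely in how steady they were from one microglia library to the next. The spread within groups (coefficient of variation, CV, over 14 libraries after removing treatment means) had a median of 9.89% over the 40 genes. For the 27 with a mean of at least 100 CPM it was 8.72%, against 9.58% for all 1495 such genes. Atp6v0b was the steadiest at 4.32%, running from 166 to 196 CPM. Lamp1 was at the other end with 63.3%, from 106 CPM in GFP replicate 5 to 896 CPM in TGFB1 replicate 2, an 8.45-fold range. Only 0.401% of the 1495 genes had a higher CV. Its values were 366 to 896 CPM in replicates 2 to 4 of both treatments and 106 to 364 CPM in replicates 5 to 8, a split noticed after the values were seen and narrow at its edge. The labels name no batch that separates these replicates, and its part was not tested. In Lamp1 9.31% of exon bases are shared with Grtp1.

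Gla (39.8%), Mcoln1 (28.7%) and Naglu (18.1%) followed Lamp1 in spread. GFP replicate 5 was the lowest of the 14 libraries for Lamp1, Mcoln1, Naglu, Idua and Atp6v0d1, with Mcoln1 at 30.9 CPM where the other GFP libraries had 84.5 to 121. GFP replicate 2 was the lowest for 14 of the 40 genes, among them Man2b1, Lgmn, Ppt1 and Atp6v0b. These were also the libraries of highest Mueller glia marker sum, at 724 and 670 CPM. The library next by that sum, TGFB1 replicate 6, was the lowest for 1 gene and the highest for 3. Whether this sum bears on the low values was not tested. Without GFP replicate 2 the value of Man2b1 was 0.20 (edgeR adjusted p = 0.0700).

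The third comparison asks the same of the non-microglia, with 2 libraries a group. There edgeR called none of the 40 genes, nor did DESeq2 or limma voom, where 0.39% of 13598 genes tested were (0.338% higher, 0.0515% lower). Positive values were found for 21 of 40 genes and for 49.9% of all genes, and the median was 0.02. An unadjusted p under 0.05 was found for 3 of the 40 genes and for 1037 of the 13598 genes tested, which are similar shares. The values of these 3 are given as not passing. Atp6v0a1 was at 181 and 213 CPM with GFP and 234 and 271 CPM with TGFB1 (0.36, SE 0.11, edgeR adjusted p = 0.256). Atp6v1a was at 239 and 245 CPM and then 289 and 303 CPM (0.29, SE 0.10, edgeR adjusted p = 0.342). Atp6v1b2 was at 324 and 348 CPM and then 387 and 393 CPM (0.22, SE 0.09, edgeR adjusted p = 0.565).

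In all 3 the TGFB1 libraries lay above the GFP libraries, which with 2 against 2 is common: groups did not overlap for 36.3% of all genes tested. Among the 40 genes this held for 14, of which 7 were higher with TGFB1 (these 3, Atp6v0d1, Atp6v1d, Lamp1 and Asah1) and 7 lower (Atp6v0e, Cln3, Sgsh, Idua, Arsb, Tpp1 and Acp2). Without GFP non-microglia replicate 2, Atp6v0a1 passed (0.48, edgeR adjusted p = 0.0179). Markers of other cells moved in the same libraries. Of 5 bipolar cell markers 4 were called higher with TGFB1, their sum being 1532 and 1625 CPM with GFP and 2341 and 2692 CPM with TGFB1. All 3 erythroid markers were called lower, with sums of 855 and 947 CPM and then 346 and 362 CPM. The part of these cells in the V-ATPase values was not tested. No pathway gene outside the 40 was called by edgeR. Those named, list by list, were Atp6v1g2, Tcirg1 and Atp6v0a2 (lowest adjusted p = 0.458), Slc17a5, Mfsd8 and Cd63 (0.572), Lamtor4, Rragd and Flcn (0.565), and Gnptg, Vps35 and Nagpa (0.734).

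Whether TGFB1 acted differently in the fractions was tested as a difference of effects, microglia minus non-microglia. None of the 40 genes was called by edgeR, DESeq2 or limma voom, and edgeR called 0.0131% of 15321 genes tested. An unadjusted p under 0.05 was found for 1 of the 40 genes and for 711 of all genes tested. Values ran from -0.39 to 0.40 with a median of 0.10, and 28 were above 0. The smallest p was that of Atp6v0a1, at -0.39 (SE 0.18, unadjusted p = 0.0366, edgeR adjusted p = 1). Acp2 followed at 0.24 (SE 0.13) and Tpp1 at 0.25 (SE 0.15), both with an edgeR adjusted p = 1. For Man2b1 the difference was 0.11 (SE 0.17, unadjusted p = 0.571), and a missed threshold does not show that the fractions responded alike. In the pathway lists the smallest adjusted p was 0.930, of Laptm5, which had counts near 0 in non-microglia.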

How the data were processed

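Counts per gene were used as the authors deposited them, 1 column for each of 18 libraries. Per the submitters' processing notes, STAR, featureCounts, DESeq2 and GRCm38.p6 were named; tool versions and roles: not given in the sources used here. Libraries carry no molecular identifiers. Of 54532 genes, 54409 were matched to GENCODE annotation of GRCm38.

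Groups were compared with edgeR 4.0.16 in R 4.3.3 (TMM scaling, filterByExpr, robust quasi-likelihood test) and Benjamini-Hochberg adjustment over all genes tested, a gene being called at an adjusted p under 0.05. SE is the log2 fold change divided by the square root of F. Treatments were compared within each fraction, and fractions and the difference of effects in a fit of all 18 libraries. That fit estimated the spread of a gene jointly over both fractions, so mostly from the more numerous microglia libraries. CPM values were scaled within the fit they belong to, so levels of a gene differ slightly between comparisons. Levels per kb divide CPM by all annotated exon bases of a gene, merged over its transcripts. Which transcripts were expressed was not considered, and ranks and isoform shares between genes depend on that length. The fits were also run on simulated counts, with a fixed spread and changes larger than the TGFB1 shifts of the lysosomal genes. That run does not show how often shifts as small as these would be found. DESeq2 1.42.0 and limma 3.58.1 (voom) were among the alternatives, with other scaling, no filter, covariates and libraries left out.

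The 40 genes and all lists were chosen with earlier results of these data known. Full values were given for called genes or otherwise the 3 of smallest p, for the highest and lowest of each role between fractions, and for Tfeb; Arsb, Atp6v1c1, Atp6v1h, Npc1 and Tfeb in microglia, Lamp1 spread and other genes named singly were added after their values were seen. Some genes that this rule would name are not reported here.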

Additional observations from a re-analysis of the deposited data

Results flagged for a closer look

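In microglia, 5 of 80 sets of libraries of 1 treatment held a library standing apart from the rest by Dixon's test, and chance gives about 1 in 20. Naglu was at 88.3 CPM in GFP replicate 5, where the other GFP libraries had 183 to 230 CPM. Mcoln1 was at 30.9 CPM in the same library, where the others had 84.5 to 121 CPM. Gaa was at 362 CPM there, above the 287 to 318 CPM of the others. Fuca1 was at 236 CPM in GFP replicate 6, where the others had 187 to 203 CPM. Neu1 was at 81.01 CPM in TGFB1 replicate 4, where the others had 106 to 119 CPM.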

How the results depend on the processing

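With TGFB1 in microglia, 1 of the 40 genes was called higher, and 0 were with no filter, in the fit of all 18 libraries, with the Mueller glia covariate, in the libraries with Xist or with Y counts alone, in replicates 2 to 4 or 5 to 8 alone, and without the 3 libraries of highest Mueller glia level. The last 5 were chosen after seeing the data. The count called lower, 0, became 1 (Arsb) with DESeq2, voom and the Xist or Y covariate. Leaving out 1 library gave 0 to 1 higher and 0 to 1 lower in microglia, 0 to 1 higher and 0 lower in non-microglia, and 0 for the difference of effects. Between fractions it gave 26 to 29 higher and 2 to 4 lower with GFP, and 27 to 28 higher and 2 to 4 lower with TGFB1. In TGFB1 retinas the count lower in microglia was 5 with RLE and DESeq2, against 3. No called gene of the 40 changed sign. Whether replicate numbers pair the libraries is not stated: same-numbered microglia libraries shared the Xist or Y class in all 7 numbers, their deviations correlated from -0.122 to 0.216, and not every library correlated best with its own number. With a replicate block the 40 genes gave 1 higher and 0 lower in microglia and 0 in non-microglia, while calls over all genes went from 34 to 60 and from 53 to 109. Fractions share only the replicate number 2. Its microglia libraries were of the Xist class and its non-microglia libraries of the Y class, so no paired analysis between fractions was possible. Genes with few counts, such as Gla, are limited by depth.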
